A study of Mus musculus with 12 samples.

Results

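Smooth muscle contractile and pacemaker genes were followed in colon RNA of 12 mice. These are 34 genes chosen by symbol, named below by role, and each was found in a single row of the table of 21899 genes. The 6 mice named CKO in the labels lacked Pck1 in the intestinal epithelium, and 6 littermates named WT served as controls. The Pck1 product is cytosolic phosphoenolpyruvate carboxykinase, an enzyme of gluconeogenesis. Colitis had been induced in all 12 mice with 2.5% DSS (dextran sulfate sodium, which damages the colonic mucosa) over 7 days, and untreated mice were not analysed here. The Cre driver and the ages were not given in the sources used here. RNA came from whole colon tissue, in which muscle cells carry Pck1 undeleted if the deletion is as labelled. The levels below therefore mix the muscle coat with vessels, mucosa and inflammatory cells, and in such samples fewer cells of a type and less RNA per cell cannot be told apart.

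In the gut wall, calcium that enters a smooth muscle cell through L-type channels activates calmodulin and myosin light chain kinase, which lets smooth muscle myosin pull on actin filaments. The filaments are anchored to dense bodies, the counterpart of the Z-discs of striated muscle, and to the cell membrane. The interstitial cells of Cajal, marked by the receptor Kit and the chloride channel Ano1, pace these contractions. Serum response factor (Srf) with its coactivator myocardin (Myocd) switches on many contractile genes by binding a short element called the CArG box.

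Because the contractile genes are known as targets of Srf, their promoter windows were searched for the CArG box and for the MCAT motif CATTCC, the binding motif of TEAD factors. Each window ran from 250 bases before to 50 bases after a gene's start (RefSeq, GRCm38.p6), and both strands were read, where MCAT appears as CATTCC or GGAATG and the 2 motifs share no letters in any window shown. Of the 34 genes, 30 had a window. Myh11, Actg2, Tagln and Myocd had none. The CArG box was counted only in its strict form of 10 letters, CC and GG with nothing but A or T between them. Forms with a C or G in between were not counted, such as CCCTATATGG in the window of Acta2 and CCTCATAAGG in that of Synm. The strict form was found for 4 of the 30 (13.3%), namely Srf, Myl9, Ldb3 and Dmd, against 1.81% of 27025 genes with a window. MCAT was found for 9 of the 30 (30.0%), among them Acta2, Tpm1 and Pdlim3, against 16.58% of all genes. A match describes these letters in this window and is neither a binding site nor a cause. Shown are the windows of Srf (chr17:46556113-46556412, minus strand) and Myl9 (chr2:156775214-156775513, plus strand), which hold the CArG box. The window of Tpm1 (chr9:67049164-67049463, minus strand) holds MCAT. Those of Synpo2 (chr3:123236100-123236399, minus strand) and Synm (chr7:67759693-67759992, minus strand), with small p among the lower genes below, hold neither MCAT nor the strict CArG box. Sequences are written 5′ to 3′ on the gene's strand, and capitals mark the motifs.
Srf: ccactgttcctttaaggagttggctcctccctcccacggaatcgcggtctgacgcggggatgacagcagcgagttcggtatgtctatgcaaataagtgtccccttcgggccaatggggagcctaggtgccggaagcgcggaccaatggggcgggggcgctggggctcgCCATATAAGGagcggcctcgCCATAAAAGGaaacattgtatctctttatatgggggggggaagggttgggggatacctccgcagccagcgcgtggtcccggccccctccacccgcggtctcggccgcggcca
Myl9: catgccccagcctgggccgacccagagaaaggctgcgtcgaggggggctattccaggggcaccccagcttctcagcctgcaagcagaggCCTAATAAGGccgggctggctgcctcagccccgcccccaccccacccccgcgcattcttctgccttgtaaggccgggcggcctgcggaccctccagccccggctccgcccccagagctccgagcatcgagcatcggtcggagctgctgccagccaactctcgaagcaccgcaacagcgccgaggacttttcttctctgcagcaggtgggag
Tpm1: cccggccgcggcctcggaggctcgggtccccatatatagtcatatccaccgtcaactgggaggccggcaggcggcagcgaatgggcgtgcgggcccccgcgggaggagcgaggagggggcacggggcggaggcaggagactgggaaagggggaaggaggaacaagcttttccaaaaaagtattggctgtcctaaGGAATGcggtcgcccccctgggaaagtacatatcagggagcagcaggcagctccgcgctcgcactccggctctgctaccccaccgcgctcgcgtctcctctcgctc
Synpo2: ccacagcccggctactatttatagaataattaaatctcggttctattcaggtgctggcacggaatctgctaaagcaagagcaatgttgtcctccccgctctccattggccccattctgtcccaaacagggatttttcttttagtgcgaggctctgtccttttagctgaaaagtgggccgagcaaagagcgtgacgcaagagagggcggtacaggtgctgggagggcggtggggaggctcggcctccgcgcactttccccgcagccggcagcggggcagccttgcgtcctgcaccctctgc
Synm: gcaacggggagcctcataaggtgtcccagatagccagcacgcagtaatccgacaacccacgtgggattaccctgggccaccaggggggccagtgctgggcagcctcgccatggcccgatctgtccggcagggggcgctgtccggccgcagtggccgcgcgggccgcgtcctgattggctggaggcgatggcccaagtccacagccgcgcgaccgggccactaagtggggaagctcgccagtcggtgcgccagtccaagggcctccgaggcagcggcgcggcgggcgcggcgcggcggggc
In the Srf window the CArG boxes begin at positions -82 and -62 from the gene's start. The CArG box of Myl9 begins at -161 and the MCAT motif of Tpm1 at -56. Srf and Myl9 differed little between the genotypes and Tpm1 stood lower, as their values below show.

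Libraries held 15348192 to 18211663 counts in the knockout and 15881625 to 19138507 counts in the control group. Pck1 itself averaged 4.19 ± 2.10 CPM over knockouts, against 53.0 ± 17.8 CPM over controls (SD, n = 6 each), without overlap. CPM are TMM-scaled counts relative to library size. Several libraries stood apart in ways that genotype does not mark. On many of the genes below and on the lists of other cell types, knockout replicate 4 lay among the controls, and control replicate 4 lay near the knockouts. Control replicate 6 carried exocrine pancreas RNA, with 41619 TPM summed over a list of 10 pancreas genes, against 69.0 to 2951 TPM in the knockout libraries and 138 to 5779.9 TPM in the other controls. TPM values, which the authors scaled for gene length and depth, are used here to set genes beside each other.

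Smooth muscle genes were abundant in the tissue. Per length, the most abundant of the 34 genes were Tagln (621 TPM over the 12 libraries), Tpm1 (618 TPM), Acta2 (513 TPM), Csrp1 (459.8 TPM) and Actg2 (394 TPM). Myosin heavy chain Myh11 averaged 136 TPM. The scarcest were the transcription coactivator Myocd (2.38 TPM) and Sgca (0.934 TPM), a sarcoglycan of the dystrophin complex. Sgca had 3 to 11 counts in the knockout and 1 to 23 counts in the control libraries and did not pass the filter on low counts, so 33 of the 34 genes were tested. In a list of 16 striated muscle genes, 10 did not pass that filter, including the skeletal myosins Myh1, Myh2, Myh4 and Myh7. That list summed to 19.2 to 39.2 TPM in the knockout libraries and 15.8 to 33.0 TPM in the control libraries, and the 34 smooth muscle genes to 3994 to 5302 TPM in the knockout libraries and 3905 to 6589 TPM in the control libraries. The 34 genes thus took 0.399% to 0.530% of a knockout library and 0.391% to 0.659% of a control library in TPM, and the groups overlapped.

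**Figure D1:**
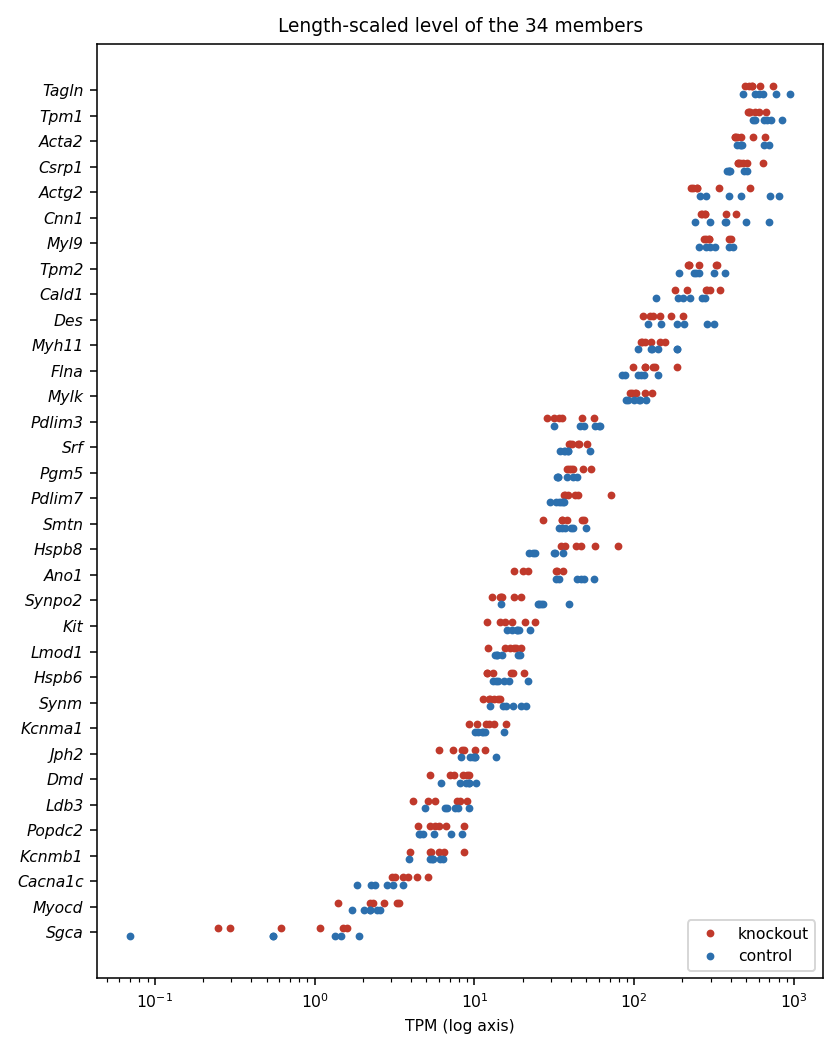
TPM (log axis) of each of the 34 genes in the 6 knockout (red, upper row of each gene) and 6 control (blue, lower row) libraries, 1 point per library, with genes ordered by their mean over all libraries. Means run from 0.934 TPM for Sgca to 621 TPM for Tagln, and the colours overlap for each gene.

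None of the 33 tested genes differed between the genotypes at an adjusted p under 0.05 (edgeR quasi-likelihood F test, Benjamini-Hochberg adjustment), where 0.0556% of all 14393 tested genes did, 0.0278% in each direction. At an unadjusted p under 0.05 there were 10 (30.3%), against 22.6% of all tested genes. Of these, 7 were lower in the knockout (21.2%, against 9.48% of all genes): Ano1, Synpo2, Synm, Tpm1, Des, Actg2 and Pdlim3. The other 3 were higher (9.09%, against 13.1% of all genes): Hspb8, Cacna1c and Pdlim7. Over all 33 genes, 21 log2 fold changes were below 0 (63.6%, against 54.9% of all genes), with a median of -0.11 beside a median of -0.03 over all tested genes. No gene of the 34 separated the 6 knockout from the 6 control libraries, while 1.52% of all tested genes did. A p that misses the threshold does not show that levels were alike, so intervals are given below.

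The smallest adjusted p among the 34 genes lay just above the threshold, and leaving out either number 4 library or control replicate 6 moved it below. Such near misses were common: in edgeR on all 12 libraries, 9.62% of all tested genes had an adjusted p under 0.1. Among the 33 genes there were 5 (15.2%). With knockout replicate 4 left out, 3 genes passed lower (2.78% of all tested genes) and 1 higher (6.02% of all tested genes). With control replicate 4 left out there were likewise 3 lower (1.93%) and 1 higher (5.03%), the same 4 genes: Ano1, Synpo2 and Synm fell and Hspb8 rose. With control replicate 6 left out, 1 gene passed, Ano1 at a log2 fold change of -0.70 (adjusted p = 0.0493), where 0.699% of all tested genes were lower. With both number 4 libraries left out, a setting chosen after seeing the data, 7 genes fell (4.88% of all tested genes) and 2 rose (8.40%). The 9 were among the 10 genes named above, all but Pdlim7. DESeq2's Wald test on all 12 libraries called 3 lower (2.95%) and 2 higher (7.61%). Beside Ano1, Synpo2, Synm and Hspb8 it called Cacna1c. Voom with sample quality weights called 8 lower (9.3%) and 3 higher (10.8%), the 9 genes called without both number 4 libraries with Jph2 lower and Cald1 higher beside them. Limma-trend called Hspb8 alone, higher, on log2(TPM + 1) (2.47% of all tested genes) and on log2(TPM + 0.1) (2.54%).

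**Figure D2:**
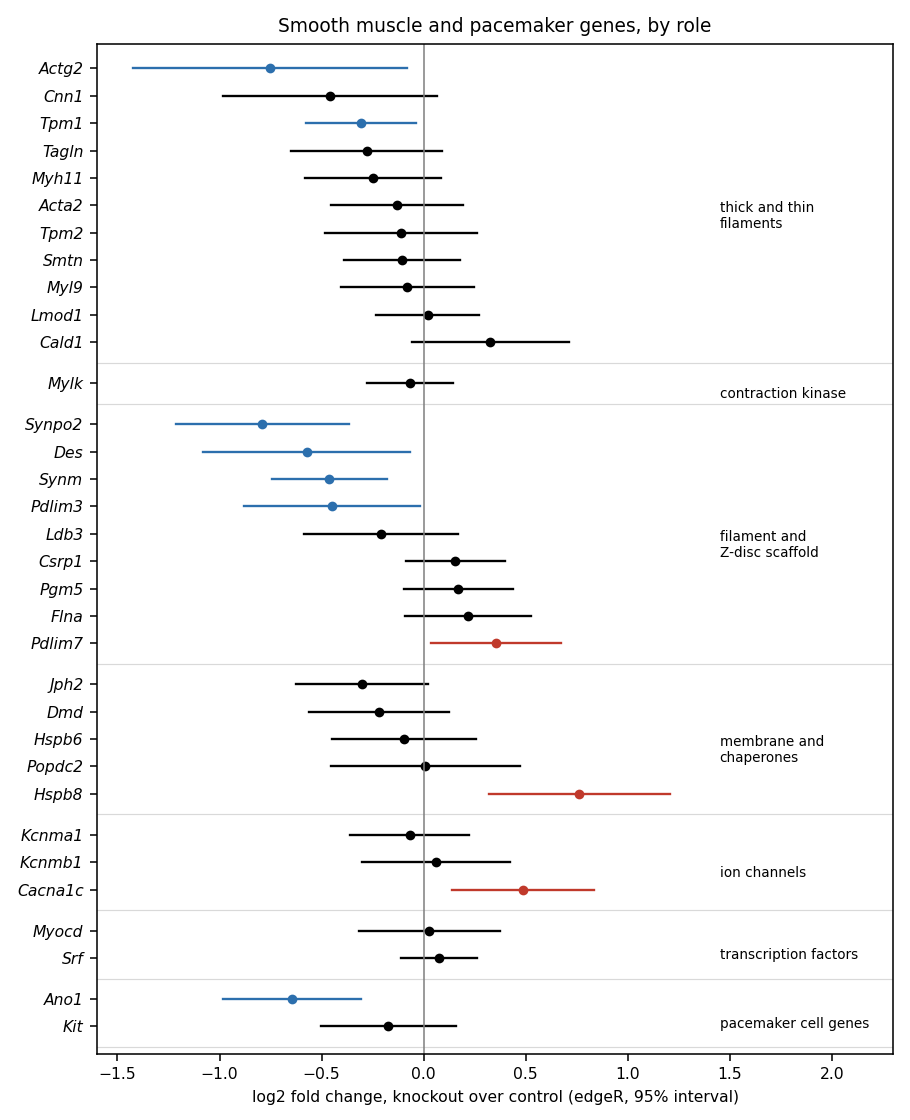
edgeR log2 fold change of knockout over control for the 33 tested genes by role, with 95% intervals; blue and red mark genes with an unadjusted p under 0.05 below and above 0. The 7 blue genes lie among the filament, scaffold and pacemaker genes, and Hspb8 (0.76) is the highest point.

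Among the thick and thin filament proteins, the gut-type actin stood further below the control than its vascular counterpart, a contrast that was not tested. Of 11 genes, 9 were below 0 (median -0.13), and 0 passed after adjustment. At an unadjusted p under 0.05, 2 were lower (18.2%, against 9.48% of all tested genes). Actg2 (ENSMUSG00000059430), the actin typical of enteric smooth muscle, had 147, 171 and 361 CPM in the knockout libraries (lowest, median and highest), against 182, 311 and 595 CPM in the control libraries. Knockout replicate 4 was the highest knockout, above control replicates 2, 3, 4 and 6, and the groups overlapped. The log2 fold change was -0.75 ± 0.31 (SE), or a level of 0.59 times the control, with an edgeR adjusted p of 0.174 and a 95% interval of -1.42 to -0.08. Acta2 (ENSMUSG00000035783), the actin of vascular smooth muscle and of activated fibroblasts, had 426, 483 and 650.0 CPM in the knockout libraries, against 428, 510.4 and 747 CPM in the control libraries (lowest, median and highest). Its groups overlapped widely, at -0.13 ± 0.15 (SE) with a 95% interval of -0.46 to 0.19. These actins are close relatives whose sequences were not compared here, and their counts are uncertain where reads could fit either.

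The proportion of the actins separated most knockout from most control libraries. The ratio of Acta2 to Actg2 in TPM was 1.73 to 1.94 in knockout replicates 1, 2, 3, 5 and 6 and 1.05 in knockout replicate 4. It was 0.809 to 1.17 in control replicates 1, 2, 3 and 5, 1.55 in control replicate 4 and 1.80 in control replicate 6. Group means were 1.74 ± 0.344 in the knockout and 1.22 ± 0.381 in the control libraries (SD, n = 6 each). The ratio was chosen after the values were seen and is given without a test.

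Myh11, Tagln and Tpm1 stood below the control with overlapping groups. Myh11 (ENSMUSG00000018830), the smooth muscle myosin heavy chain, had 375, 425 and 549 CPM in the knockout libraries, against 364, 488 and 698 CPM in the control libraries (lowest, median and highest). Its log2 fold change was -0.25 ± 0.16 (SE) with a 95% interval of -0.58 to 0.09. Tagln (ENSMUSG00000032085), the actin-binding protein transgelin, had 413, 469.8 and 635 CPM in the knockout libraries, against 404, 551 and 877 CPM in the control libraries, at -0.28 ± 0.17 (SE). For both genes control replicates 1 and 5 lay above each knockout library and control replicate 4 below each, so the controls were the more spread group. Tpm1 (ENSMUSG00000032366), a tropomyosin that covers the myosin-binding sites of actin, had 439, 501 and 600.2 CPM in the knockout libraries, against 494, 613 and 831 CPM in the control libraries. Of the 6 controls, 4 lay above the highest knockout, replicate 4, and control replicates 4 and 6 among the knockouts. Its log2 fold change was -0.31 ± 0.13 (SE), with an edgeR adjusted p of 0.169.

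The remaining filament genes ran from -0.46 to 0.33 on the log2 scale. Cnn1, the calponin that restrains actomyosin, stood at -0.46 ± 0.24 (SE), and its control libraries spread from 222 to 649.6 CPM. Tpm2 (-0.11), the smoothelin gene Smtn (-0.11), the myosin light chain gene Myl9 (-0.08) and the leiomodin gene Lmod1 (0.02) lay close to 0. The 95% interval of Myl9 was -0.41 to 0.24. Cald1, the caldesmon gene, whose shorter product is also made outside muscle, stood highest of the filament genes, at 0.33 ± 0.18 (SE) with a 95% interval of -0.06 to 0.71. The myosin light chain kinase Mylk stood at -0.07 ± 0.10 (SE), with a 95% interval of -0.28 to 0.14.

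Scaffold genes of the dense bodies and intermediate filaments held the lowest log2 fold change. Of 9 genes, 5 were below 0 and 4 above (median -0.21). At an unadjusted p under 0.05, 4 were lower (44.4%, against 9.48% of all tested genes) and 1 higher (11.1%, against 13.1%). Synpo2 (ENSMUSG00000050315), an actin-bundling protein of Z-discs and dense bodies, had 48.6, 56.9 and 72.1 CPM in the knockout libraries (lowest, median and highest), against 55.4, 96.5 and 162 CPM in the control libraries. All controls but replicate 4 (55.4 CPM) lay above the highest knockout, replicate 4. The log2 fold change was -0.79 ± 0.20 (SE), or 0.58 times the control level, with an edgeR adjusted p of 0.0580 and a 95% interval of -1.21 to -0.37. Without control replicate 4 it was -0.92 (adjusted p = 0.0146) in the same edgeR test. Over the 24 alternatives described at the end, the adjusted p of Synpo2 ran from 0.00506 to 0.259, and 5 of them called it.

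Synm (ENSMUSG00000030554), the intermediate filament protein synemin, had 41.7, 48.3 and 52.8 CPM in the knockout libraries, against 47.3, 63.0 and 89.1 CPM in the control libraries (lowest, median and highest). As for Synpo2, 5 controls lay above all knockout libraries and control replicate 4, at 47.3 CPM, among them. The log2 fold change was -0.46 ± 0.13 (SE), with an edgeR adjusted p of 0.0702. Des (ENSMUSG00000026208), the muscle intermediate filament desmin, had 184, 229.6 and 333 CPM in the knockout libraries, against 196, 325 and 555 CPM in the control libraries. Control replicates 1, 3 and 5 lay above each knockout library, while control replicates 2, 4 and 6 lay among the knockouts. Its log2 fold change was -0.57 ± 0.24 (SE), with an edgeR adjusted p of 0.171. Pdlim3 (ENSMUSG00000031636), a PDZ and LIM protein that binds alpha-actinin, had 24.4, 30.6 and 48.7 CPM in the knockout libraries, against 26.9, 46.8 and 56.0 CPM in the control libraries, at -0.45 ± 0.20 (SE) and an edgeR adjusted p of 0.204. Exons of Des, Synm, Tagln, Smtn, Mylk, Hspb6 and Kcnma1 overlap genes on the opposite strand in GENCODE M21, and whether counting used strand is not given.

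Other scaffold proteins stood on the other side of 0. Pdlim7 (ENSMUSG00000021493), a relative of Pdlim3 that is not limited to muscle, had 27.8, 33.2 and 55.2 CPM in the knockout libraries, against 25.9, 28.4 and 31.8 CPM in the control libraries (lowest, median and highest). Knockout replicates 2, 3 and 5 lay above all controls, replicate 2 furthest, and knockout replicates 1, 4 and 6 lay within the control range. Its log2 fold change was 0.35 ± 0.15 (SE), with an edgeR adjusted p of 0.178. Flna, the actin crosslinker filamin A of many cell types, stood at 0.22 ± 0.14 (SE), the LIM protein gene Csrp1 at 0.16 ± 0.11 (SE) and the adhesion protein gene Pgm5 at 0.17 ± 0.12 (SE). Ldb3, a Z-disc protein of striated muscle, stood at -0.21 ± 0.18 (SE).

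**Figure D3:**
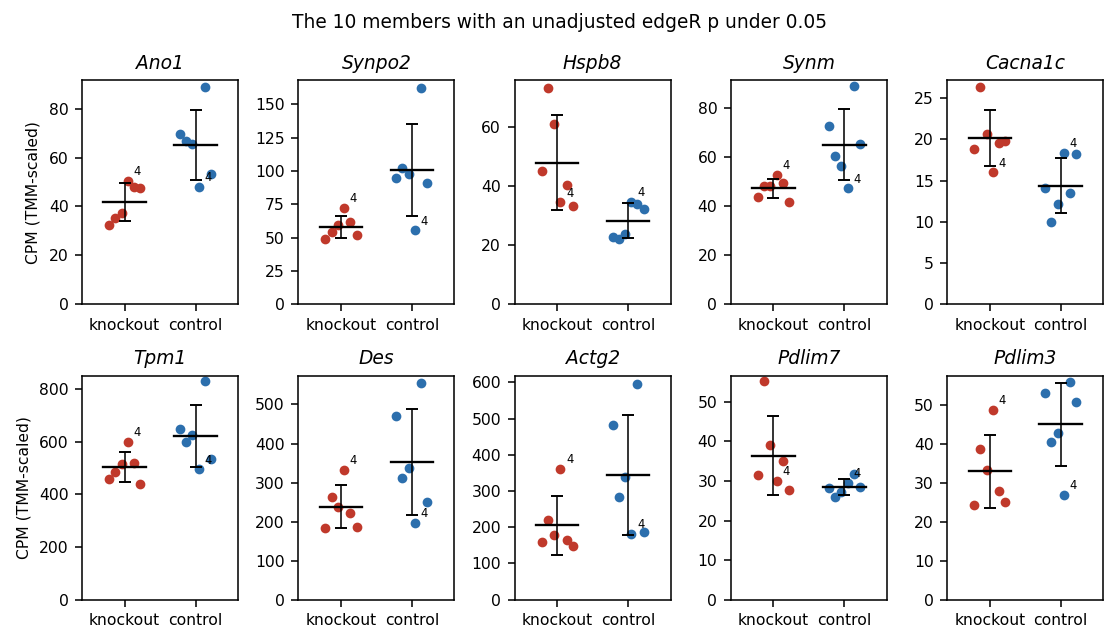
TMM-scaled CPM per library for the 10 genes with an unadjusted edgeR p under 0.05; points are libraries, replicates 1 to 6 from left to right, with replicate 4 labelled, and bars give the mean and SD (n = 6 each). For Synpo2, Synm and Ano1, 5 of the 6 controls lie above all knockouts, and control replicate 4 does not.

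In the group of membrane and chaperone genes, Hspb8 stood apart. Hspb8 (ENSMUSG00000041548), a small heat shock protein that helps clear damaged filament proteins, had 33.1, 42.7 and 73.2 CPM in the knockout libraries (lowest, median and highest), against 22.2, 28.0 and 34.6 CPM in the control libraries. Knockout replicates 1, 2, 3 and 5 lay above all controls, and knockout replicates 4 and 6 within the control range. The log2 fold change was 0.76 ± 0.21 (SE), or 1.70 times the control level, with an edgeR adjusted p of 0.0636. Its relative Hspb6, which binds actin and relaxes smooth muscle, stood at -0.10 ± 0.16 (SE). Dystrophin (Dmd) stood at -0.22 ± 0.16 (SE), the junctophilin gene Jph2 at -0.30 ± 0.15 (SE) and Popdc2, a cAMP-binding membrane protein, at 0.01 ± 0.21 (SE).

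Of the 3 ion channel genes, the calcium channel had the highest log2 fold change. Cacna1c (ENSMUSG00000051331), the pore of the L-type calcium channel, had 16.0, 19.6 and 26.3 CPM in the knockout libraries (lowest, median and highest), against 9.96, 13.8 and 18.3 CPM in the control libraries. Of the 6 knockouts, 5 lay above all controls, and knockout replicate 4 (16.0 CPM) lay among them. The log2 fold change was 0.49 ± 0.16 (SE), with an edgeR adjusted p of 0.0988. The calcium-activated potassium channel genes, which code for the pore (Kcnma1) and the smooth muscle subunit (Kcnmb1), stood at -0.07 ± 0.14 (SE) and 0.06 ± 0.17 (SE).

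The transcription factors of the contractile program had log2 fold changes near 0. Srf (ENSMUSG00000015605) had 50.5, 56.2 and 60.8 CPM in the knockout libraries, against 45.8, 53.0 and 63.8 CPM in the control libraries (lowest, median and highest), with overlapping groups. Its log2 fold change was 0.08 ± 0.09 (SE), with a 95% interval of -0.11 to 0.26. Myocd (ENSMUSG00000020542) had 4.22, 5.25 and 6.90 CPM in the knockout libraries, against 4.45, 4.81 and 6.52 CPM in the control libraries. The knockout range enclosed the control range, and the log2 fold change was 0.03 ± 0.16 (SE) with a 95% interval of -0.32 to 0.38. At an unadjusted p under 0.05, 13.1% of all tested genes were higher and 9.48% lower. In a list of 15 further regulators found in the table, 14 were tested, 4 were higher and 0 lower at that p, and 0 passed after adjustment. The smallest p belonged to the gut mesenchyme factors Foxf1 (0.82 ± 0.23, SE) and Nkx2-3 (0.50 ± 0.16) and to the RNA-binding protein gene Rbpms (0.47 ± 0.15). The Srf coactivators Mrtfa (0.13 ± 0.09) and Mrtfb (0.01 ± 0.11) lay near 0.

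Of the pacemaker genes, Ano1 stood further below the control than Kit, a contrast between genes that was not tested. Ano1 (ENSMUSG00000031075), the calcium-activated chloride channel of the interstitial cells of Cajal, which other cells of the gut wall and mucosa can also express, had 32.2, 42.3 and 50.5 CPM in the knockout libraries (lowest, median and highest), against 48.0, 66.1 and 88.8 CPM in the control libraries. All controls but replicate 4 (48.0 CPM) lay above the highest knockout, replicate 4 (50.5 CPM). The log2 fold change was -0.65 ± 0.16 (SE), or 0.64 times the control level, with an edgeR adjusted p of 0.0569 and a 95% interval of -0.98 to -0.31. Kit (ENSMUSG00000005672), the stem cell factor receptor, had 32.0, 44.5 and 64.0 CPM in the knockout libraries, against 44.7, 53.4 and 67.8 CPM in the control libraries. The groups overlapped, at -0.17 ± 0.15 (SE) with a 95% interval of -0.50 to 0.16.

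Kit also marks mast cells, and some of their markers were present here. In a list of 10 mast cell genes, 5 passed the filter on low counts, 1 was higher and 0 lower at an unadjusted p under 0.05, and the list summed to 30.3 to 68.0 TPM in the knockout libraries and 17.4 to 36.8 TPM in the control libraries. The higher gene was Hdc (1.34 ± 0.48, SE), which makes histamine and is also active in other myeloid cells. The tryptase gene Tpsab1 was listed at 0 in 11 of the 12 libraries, and Tpsb2, Mcpt4, Fcer1a and Ms4a2 did not pass the filter either. Cpa3 and Cma1 passed it and stood above 0 in each library, at log2 fold changes of 0.15 ± 0.40 and -0.46 ± 0.38 (SE). The mast cell proteases Mcpt1 and Mcpt2 of the same list were also found in each library. Mcpt1 had 3.53 to 24.0 TPM in the knockout and 5.59 to 13.3 TPM in the control libraries, and Mcpt2 had 4.12 to 11.0 TPM in the knockout and 3.96 to 9.42 TPM in the control libraries. Kit itself had 11.97 to 24.0 TPM in the knockout and 16.1 to 22.3 TPM in the control libraries, and the part of mast cells in its level was not tested. Among 12 further genes of pacemaker and PDGFRA-positive interstitial cells, 11 were tested, with 2 higher and 1 lower at an unadjusted p under 0.05 and 0 after adjustment. Beside this list and the mast cell list, 13.1% of all tested genes were higher and 9.48% lower at that p. Gja1, a gap junction protein of many cell types, stood at 1.05 ± 0.25 and Pdgfra at 0.82 ± 0.27. Pdgfra is counted again among the fibroblast markers below. Gpr20, a receptor of the interstitial cells of Cajal, stood at -0.52 ± 0.16, on the side of Ano1, while Etv1, their transcription factor, stood at 0.19 ± 0.18.

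Genes that signal to the contractile apparatus stood mostly near the control. At an unadjusted p under 0.05, 13.1% of all tested genes were higher and 9.48% lower. Of 24 tested in this list, 14 were above 0 and 10 below (median 0.01), and 0 passed after adjustment. At that unadjusted p 3 were higher, near the share over all genes, and 0 lower. The smallest p belonged to Atp2a2 (0.37 ± 0.09, SE), the calcium pump of the sarcoplasmic reticulum, Tln1 (0.32 ± 0.12), the adhesion protein talin, and Gucy1b1 (0.39 ± 0.17), a subunit of the nitric oxide receptor. Pln, which restrains the calcium pump, stood at -0.38 ± 0.18. The muscarinic receptors Chrm2 (-0.09 ± 0.27) and Chrm3 (-0.04 ± 0.28), which carry the neural signal to contract, lay near 0.

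Markers of other cells of the wall stood mostly above 0. Their counts at an unadjusted p under 0.05 stand beside 13.1% higher and 9.48% lower over all tested genes. Pericyte and mural markers, from cells that also carry Acta2, were above 0 in 8 of 8 tested (median 0.62), 5 of them at an unadjusted p under 0.05. The potassium channel subunits Kcnj8 (1.67 ± 0.32, SE) and Abcc9 (0.96 ± 0.26) and the receptor Pdgfrb (0.74 ± 0.23) had the smallest p. The mural list summed to 212 to 424 TPM in the knockout libraries and 135 to 331 TPM in the control libraries. Knockout replicate 4, at 212 TPM, was the lowest knockout, and control replicates 4 and 6, at 268 and 331 TPM, were the highest controls.

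Enteric neuron and glia markers were above 0 in 11 of 12, 9 of them at an unadjusted p under 0.05. Their sum was 179 to 425 TPM in the knockout libraries and 100.2 to 179 TPM in the control libraries. Fibroblast markers were above 0 in 9 of 10, 8 at an unadjusted p under 0.05, and summed to 2369 to 5377 TPM in the knockout libraries and 1465 to 2891 TPM in the control libraries. Endothelial markers were above 0 in 8 of 8, 5 at an unadjusted p under 0.05, with 196 to 410.4 TPM in the knockout libraries and 134 to 206 TPM in the control libraries. Neutrophil markers, above 0 in 10 of 10 and 8 at an unadjusted p under 0.05, summed to 615 to 3588 TPM in the knockout libraries and 250.5 to 1518 TPM in the control libraries. Epithelial markers were below 0 in 9 of 10, 5 at an unadjusted p under 0.05, with 11562 to 12828 TPM in the knockout libraries and 10853 to 16077 TPM in the control libraries. Exocrine pancreas markers were below 0 in 10 of 10, 1 at an unadjusted p under 0.05. They summed to 69.0 to 2951 TPM in the knockout libraries and 138 to 41619 TPM in the control libraries, with medians of 1700 and 1810 TPM. The highest sum was that of control replicate 6, and the other controls reached at most 5779.9 TPM. Over all tested genes, 13.1% were higher and 9.48% lower at an unadjusted p under 0.05. No gene of these lists passed after adjustment in edgeR, and their part in the values of the 34 genes was not tested.

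**Figure D4:**
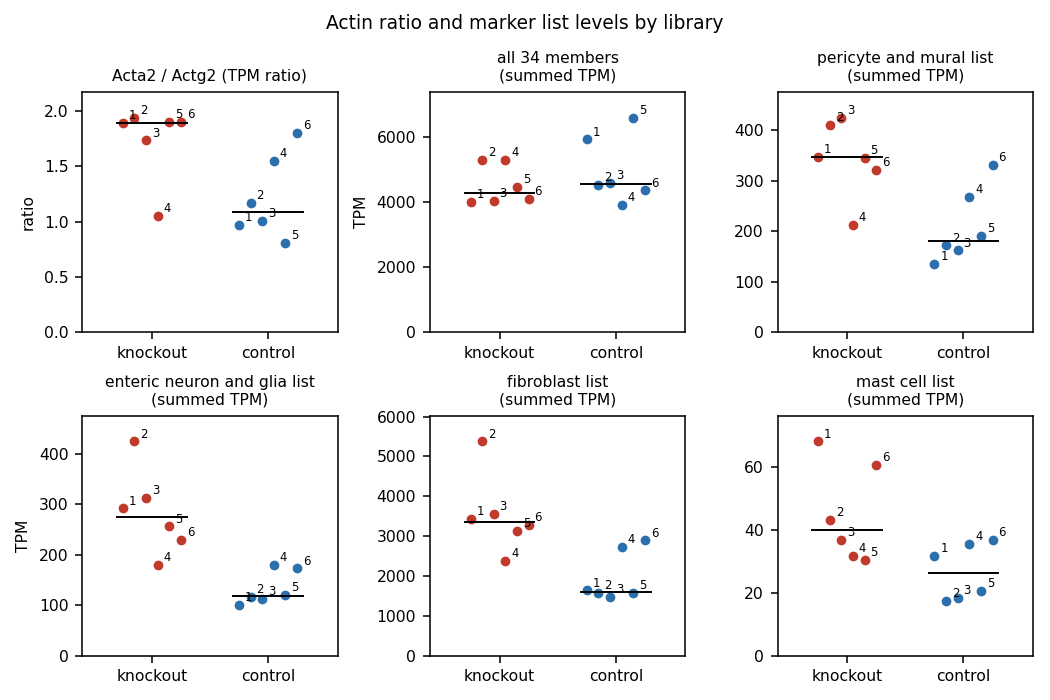
Ratio of Acta2 to Actg2 and summed TPM of the 34 genes and of 4 marker lists in each library; numbers are replicates and lines are group medians. In the actin ratio and in the mural and fibroblast lists, knockout replicate 4 lies below the other knockouts and control replicates 4 and 6 above the other controls.

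Single libraries stood high or low across many of the 33 genes. The median deviation of the genes from their mean over the 12 libraries, in log2 CPM, was 0.17 in knockout replicate 2 and 0.07 in knockout replicate 4, and -0.21 to -0.04 in the other knockouts. In the controls it was 0.33 in replicate 5, 0.29 in replicate 1 and -0.21 in replicate 4, with the rest between -0.06 and 0.05. Control replicate 5 held the highest level of 16 of the 33 genes and knockout replicate 2 that of 6, while knockout replicate 6 held the lowest level of 8 and control replicate 4 of 7. Knockout replicate 2 was highest for genes that stood above 0, among them Hspb8, Pdlim7, Flna, Csrp1 and Cacna1c. Control replicate 5 was highest for Actg2, Cnn1, Des, Synpo2, Synm and Ano1.

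**Figure D5:**
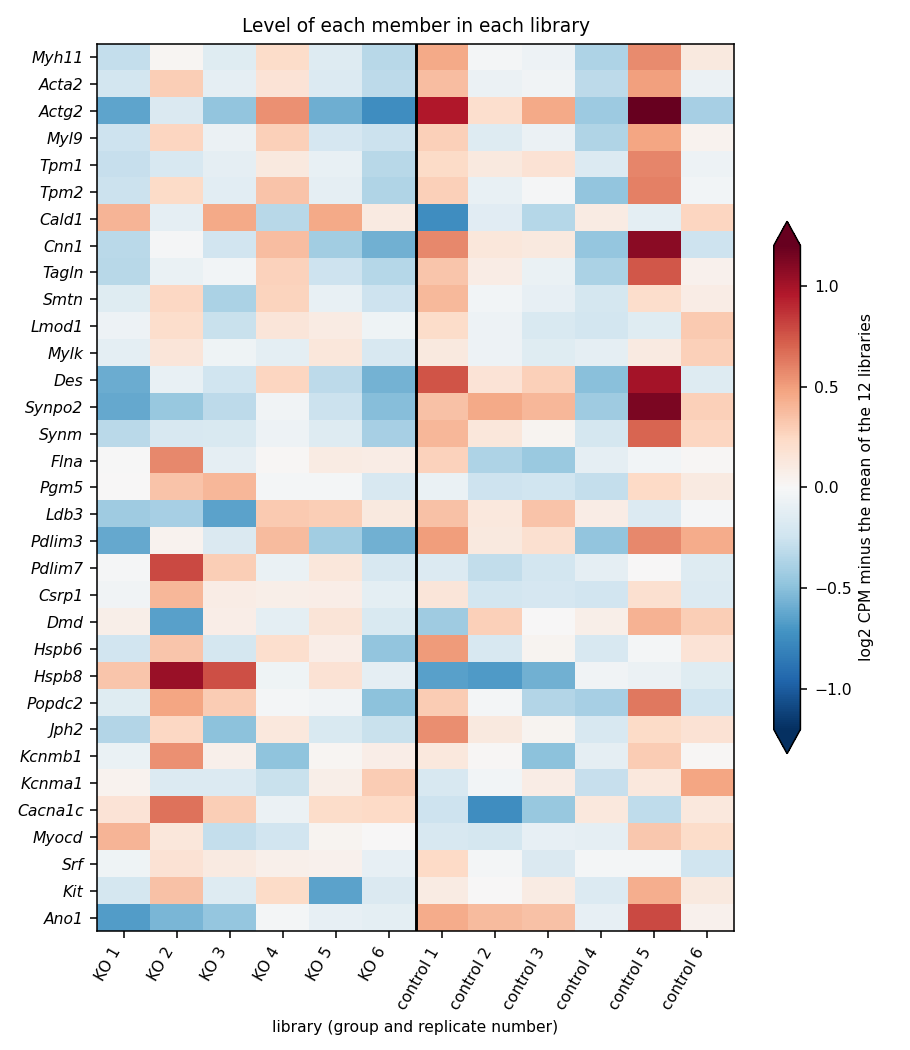
Level of each of the 33 tested genes in each library as log2 CPM minus the gene's mean over the 12 libraries (red above, blue below), knockouts left of the line and controls right of it. Control replicate 5 is the highest library for 16 genes, and knockout replicate 4 differs from the other knockouts for Actg2, Cnn1 and Des.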

How the data were processed

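Colon RNA of 6 knockout and 6 control mice was used, grouped and numbered by the labels. RNA was extracted with Trizol and prepared with a SMARTER mRNA-Seq kit, per the labels' protocols. The authors deposited raw read counts per gene and library, per the file headers, and TPM scaled by them for gene length and depth. The deposited table adds a log2 fold change of mean TPM, a p-value and its adjusted form from an unnamed test. Per the submitters' processing notes, the builds named are GRCm38, mm10 and mm39 without roles. Aligner, counter and strand use were not given in the sources used here.

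Tests used edgeR 4.0.16 (R 4.3.3): filterByExpr (minimum count 10, minimum total 15), TMM scaling, and the quasi-likelihood F test of knockout minus control on the 12 libraries, without covariates, adjusted over 14393 tested genes at a threshold of 0.05. SEs are the fold change over the root of F, and 95% intervals from the test's degrees of freedom. Library levels are log2 CPM (prior count 2). Depth of 15348192 to 19138507 counts sets the counting error. The procedure was tested on simulated counts. No libraries were alike within counting noise (lowest chi-square per gene 19.4 over 66 combinations). The members and lists were chosen with earlier results of these data known. Values are given for members at an unadjusted p under 0.05 and for a set of others (Myh11, Acta2, Actg2, Tagln, Des, Kit, Ano1, Myocd, Srf), and list genes by smallest p; Mrtfa, Mrtfb, Etv1, Pln, Chrm2 and Chrm3 were picked after their values were seen. Alternatives were DESeq2 1.42.0 size factors and Wald test, library size only, upper quartile, other low-count filters, limma 3.58.1 voom without and with quality weights, limma-trend on log2 TPM with a pseudocount of 1 or 0.1, the replicate number as a block, and each library left out. Leaving out both number 4 libraries was chosen after seeing the data.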

Additional observations from a re-analysis of the deposited data

Results flagged for a closer look

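Flna in knockout replicate 2, at 781 CPM, lay far from the other 5 knockout libraries, which held 486 to 563 CPM. On the log2 CPM scale the gap was 0.687 of the group's range, above the critical value of 0.625. On that scale it was the single such case in 66 groups tested (33 genes in 2 groups). By chance about 1 group in 20 passes the critical value, so a single case in 66 groups is not more than chance gives. On the CPM scale, a setting chosen after seeing the data, 3 cases passed: Flna in knockout replicate 2 (0.736 of the range), Actg2 in knockout replicate 4 (0.665), at 361 CPM beside 147 to 219 CPM in the other knockouts, and Csrp1 in knockout replicate 2 (0.639), at 592 CPM beside 414 to 478 CPM in the other knockouts.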

How the results depend on the processing

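Of 24 alternatives, 16 called none of the 34 genes, as in the edgeR fit reported. Over all tested genes that fit called 4 higher and 4 lower, DESeq2's size factors 33 and 19, library size only 230 and 45, DESeq2's Wald test 1095 and 424, voom 30 and 19, voom with quality weights 1549 and 1339, limma-trend 355 and 48 on log2(TPM + 1) and 365 and 48 on log2(TPM + 0.1), and the fit without both number 4 libraries 1209 and 702. Leaving out each library in turn gave 0 to 870 higher and 2 to 402 lower. Among the 34 genes, those called higher and lower numbered 2 and 3 with DESeq2's Wald test, 3 and 8 with voom and quality weights, 1 and 0 with each limma-trend fit, 2 and 7 without both number 4 libraries, and 0 to 1 and 0 to 3 with each library left out. Lower genes at an unadjusted p under 0.05, 7 in the fit reported, were 12 with voom and quality weights, 3 with each limma-trend fit, 11 without both number 4 libraries, and 3 to 11 with each library left out (3 without knockout replicate 1, knockout replicate 6 or control replicate 5, 4 without knockout replicate 5, and 11 without control replicate 4). Higher genes at that p, 3 in the fit reported, were 2 to 4 with each library left out. The share of all tested genes at that p was not computed for the alternatives, so these counts have no background beside them. At the adjusted threshold that share was 0.0556% in the fit reported, 20.1% with voom and quality weights and 13.3% without both number 4 libraries. The median of the 33 genes stayed below 0 throughout, from -0.22 without both number 4 libraries to -0.04 with limma-trend on log2(TPM + 1), and from -0.17 to -0.05 with each library left out.

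The same replicate number did not pair libraries: their deviations correlated at -0.50 to 0.08, and 0 of 6 knockouts correlated best with their own number. With the replicate block the fit called 0 higher and 1 lower gene, none of the 34, with 3 lower genes among the 34 at an unadjusted p under 0.05. The share of all tested genes at that p was not computed for this fit either.

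Of 24 alternatives for each of 33 genes, 28 values changed sign, all of genes that lay within 0.11 of 0 in the fit reported and were not called. Popdc2 was at -0.10 to 0.17 with each library left out, -0.12 with voom and quality weights and -0.045 without both number 4 libraries. Kcnma1 was at -0.14 to 0.034 with each library left out, 0.023 with voom and quality weights, 0.045 with limma-trend on log2(TPM + 1) and 0.048 with limma-trend on log2(TPM + 0.1). Mylk was at 0.055 with limma-trend on log2(TPM + 1) and 0.056 with limma-trend on log2(TPM + 0.1). Myocd was at -0.062 to 0.10 with each library left out. Lmod1 was at -0.022 to 0.091 with each library left out and -0.043 without both number 4 libraries. Kcnmb1 was at -0.063 to 0.16 with each library left out. Hspb6 was at -0.18 to 0.010 with each library left out. Myl9 was at -0.15 to 0.017 with each library left out. Tpm2 was at -0.20 to 0.021 with each library left out. None of the 10 genes with an unadjusted p under 0.05 changed sign. Ranges were -0.78 to -0.54 for Ano1 (adjusted p 0.00650 to 0.259) and -0.98 to -0.60 for Synpo2 (0.00506 to 0.259). They were -0.57 to -0.34 for Synm (0.0143 to 0.259) and 0.60 to 0.91 for Hspb8 (0.00913 to 0.271). The cause of these differences was not tested. Counting depth limits Sgca, which could not be tested, and leaves Myocd and Popdc2 with the lowest tested levels.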

Other observations

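In the authors' deposited table, whose test is not named, 4 of the 34 genes had an adjusted p under 0.05: Synpo2, Ano1, Synm and Hspb8. The share of all genes under that threshold in the same table was not computed here, so this count has no background beside it. Synpo2 (log2 fold change -0.74), Ano1 (-0.70) and Synm (-0.37) were lower in the knockout, and Hspb8 (0.82) was higher. Cacna1c (0.54) had an adjusted p of 0.0504 in the authors' deposited table. These values come from the same libraries and are no separate evidence.

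Like the ratio of Acta2 to Actg2, other ratios within the family overlapped between the genotypes. The TPM ratio of Tpm2 to Tpm1 was 0.457 ± 0.0636 in the knockout and 0.399 ± 0.0426 in the control libraries (SD, n = 6 each). That of Kcnmb1 to Kcnma1 was 0.494 ± 0.122 in the knockout and 0.473 ± 0.106 in the control libraries.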
